A study of Homo sapiens with 4 samples.

Results

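Acetylated histone H3 was profiled by ChIP-seq, which sequences the DNA bound by an immunoprecipitated protein, in AIMP1-overexpressing and wild-type H929 cells. H929 is an established line of human plasma cell myeloma. The regions described here were 754 wild-type acetyl-H3 promoter peaks that shared no base with any peak of the AIMP1-overexpressing cells. They were 754 of 1739 wild-type promoter peaks (43.4%, exact 95% binomial interval 41 to 45.7), and the other 985 wild-type promoter peaks overlapped an overexpression peak by at least 1 bp. A peak was at a promoter where the authors' annotation placed it within 3 kb of an annotated transcription start site. The 754 peaks, called members below, fell into 2 classes by the gene that the deposited list gave to each peak. For 325 members (43.1%, 39.5 to 46.7) the overexpression list held a promoter peak of the same gene at another position. For 429 members (56.9%, 53.3 to 60.5) it held none. The members were chosen by the measured peak positions, so their lack of overlap is a definition and not a result.

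The overexpression group was H929 cells labelled as overexpressing, with AIMP1 named in the series title, and it was set against H929 cells labelled wild type. All cells were fixed with formaldehyde, and the labels name no vector, no clone and no further treatment. Each group had 1 acetyl-H3 library, so no difference between the groups has a replicate check or a test. The overexpression list held 9780 peaks and the wild-type list 4828. The number of sequenced reads is unknown, and a position without a listed peak had no peak at the authors' threshold, and may still be acetylated. With the overexpression list cut to its 4828 peaks of lowest p-value, the length of the wild-type list, members made up 60.3% of wild-type promoter peaks, and 819 rather than 429 had no overexpression promoter peak of the gene. Of 10 plasma cell markers, 8 had an overexpression promoter peak and 1 had a wild-type promoter peak, and 6 had a wild-type peak of any kind. Of 7 T and NK cell markers, 0 had an overexpression promoter peak and 1, KLRD1, had a wild-type one, and in a longer list of 22 such genes the counts were 3 and 2. Of 5 monocyte and macrophage markers, 0 had a promoter peak in either library, and of a longer list of 18, 0 had an overexpression promoter peak and 1, ITGAX, a wild-type one. The wild-type promoter peaks of KLRD1 and ITGAX were members.

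Acetylation of the histone H3 tail loosens nucleosomes and is read by bromodomain proteins. It is densest in the nucleosomes that flank the start sites of active genes and also marks enhancers inside and between genes. Most housekeeping start sites lie in CpG islands, stretches rich in the dinucleotide CG. Many genes carry several alternative start sites, so a peak can be assigned to a promoter that lies far inside the longest transcript. AIMP1 is a scaffold protein of the aminoacyl-tRNA synthetase complex.

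The sequences below show the start regions that carried a wild-type peak with no overexpression peak across them. Each is the RefSeq promoter window of the gene (GRCh38.p14), read 5′ to 3′ on the gene's strand over 250 bases before and 50 bases after the start, with each CpG in capitals. The whole window lay inside the member for 106 members. Of these, 94 had a gene with no overexpression promoter peak and 12 had a gene with one elsewhere. The 4 windows of the class without an overexpression promoter peak with the highest wild-type fold enrichment were those of ELOVL3 (chr10:102226049-102226348, plus strand), CAPS2 (chr12:75330275-75330574, minus strand), SLFN12 (chr17:35433125-35433424, minus strand) and KHDC4 (chr1:155934364-155934663, minus strand).
ELOVL3: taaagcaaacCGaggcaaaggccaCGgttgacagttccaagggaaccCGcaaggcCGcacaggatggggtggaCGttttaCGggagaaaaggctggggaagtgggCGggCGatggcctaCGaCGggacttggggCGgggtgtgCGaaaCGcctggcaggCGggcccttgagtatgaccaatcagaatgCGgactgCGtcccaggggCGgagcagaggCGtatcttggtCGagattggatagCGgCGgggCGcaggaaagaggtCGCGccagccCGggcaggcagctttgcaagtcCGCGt
CAPS2: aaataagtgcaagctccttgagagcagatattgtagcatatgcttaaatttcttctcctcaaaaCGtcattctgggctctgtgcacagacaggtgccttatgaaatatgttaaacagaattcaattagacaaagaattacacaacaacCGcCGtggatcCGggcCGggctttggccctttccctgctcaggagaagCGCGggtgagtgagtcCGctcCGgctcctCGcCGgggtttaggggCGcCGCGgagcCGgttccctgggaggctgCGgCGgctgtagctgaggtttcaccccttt
SLFN12: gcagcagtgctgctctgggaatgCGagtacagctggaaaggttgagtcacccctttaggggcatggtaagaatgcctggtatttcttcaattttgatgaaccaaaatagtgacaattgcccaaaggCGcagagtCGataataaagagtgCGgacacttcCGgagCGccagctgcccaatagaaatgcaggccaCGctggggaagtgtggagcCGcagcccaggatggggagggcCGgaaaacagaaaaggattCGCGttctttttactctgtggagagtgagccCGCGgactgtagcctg
KHDC4: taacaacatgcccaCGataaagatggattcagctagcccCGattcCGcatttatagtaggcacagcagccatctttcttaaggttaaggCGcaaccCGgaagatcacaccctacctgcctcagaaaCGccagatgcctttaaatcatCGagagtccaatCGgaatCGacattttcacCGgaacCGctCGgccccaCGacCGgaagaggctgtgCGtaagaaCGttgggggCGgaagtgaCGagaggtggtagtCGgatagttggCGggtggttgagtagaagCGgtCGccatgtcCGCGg
ELOVL3, a fatty acid elongase, held 27 CpG dinucleotides in its window, CAPS2, a calcium-binding protein, 17, SLFN12, a member of the Schlafen family, 13, and KHDC4, an RNA-binding protein, 24. The ratio of observed to expected CpG was 0.956 at ELOVL3, 0.788 at CAPS2, 0.632 at SLFN12 and 1.09 at KHDC4.

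For genes with an overexpression promoter peak elsewhere, the 2 windows of highest wild-type fold were those of PCBP2 (chr12:53451852-53452151, plus strand), a poly(C)-binding protein, and MLLT3 (chr9:20622450-20622749, minus strand), a reader of acetylated histones.
PCBP2: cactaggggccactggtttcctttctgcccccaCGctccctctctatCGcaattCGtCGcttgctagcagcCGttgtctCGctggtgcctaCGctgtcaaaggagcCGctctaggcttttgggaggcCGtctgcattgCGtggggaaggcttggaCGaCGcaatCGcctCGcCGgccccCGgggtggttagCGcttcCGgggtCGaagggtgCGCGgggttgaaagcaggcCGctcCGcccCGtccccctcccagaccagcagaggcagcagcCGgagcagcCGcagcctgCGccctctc
MLLT3: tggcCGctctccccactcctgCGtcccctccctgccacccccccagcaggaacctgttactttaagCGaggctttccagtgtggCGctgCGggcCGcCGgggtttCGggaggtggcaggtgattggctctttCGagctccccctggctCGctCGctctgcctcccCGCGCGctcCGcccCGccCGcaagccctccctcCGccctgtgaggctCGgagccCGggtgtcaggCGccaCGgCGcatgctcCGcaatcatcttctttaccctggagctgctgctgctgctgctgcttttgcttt
The PCBP2 window had 27 CpG dinucleotides and a ratio of 0.804, and the MLLT3 window had 24 and a ratio of 0.714. At PCBP2 the overexpression peak began 67 bp beyond the end of the wild-type peak. At MLLT3 the gap was 111 bp.

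Members lay mostly beside start sites rather than over them. An annotated start site was covered by 248 of 754 members (32.9%) and by 789 of 985 overlapping wild-type promoter peaks (80.1%). Members within 1 kb of a start made up 59.2% of the 754, those at 1 to 2 kb 22.4% and those at 2 to 3 kb 18.4%. Among overlapping peaks the shares were 96% within 1 kb, 3.05% at 1 to 2 kb and 0.914% at 2 to 3 kb. Of the 506 members that did not cover the start, 279 lay upstream of it (55.1%, 50.7 to 59.5).

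The share of wild-type peaks without an overexpression peak followed the distance from the start site. It was 23.9% of 1037 peaks that covered a start (21.3 to 26.6) and 55.8% of 355 that lay within 1 kb without covering it (50.4 to 61). It was 84.9% of 199 peaks at 1 to 2 kb (79.2 to 89.6) and 93.9% of 148 at 2 to 3 kb (88.8 to 97.2). Outside promoters the share was 97.1% of 3089 peaks (96.5 to 97.7), close to that at 2 to 3 kb. In the other direction, 88.1% of 8300 overexpression promoter peaks overlapped no wild-type peak. These 8300 were most of the 9780 overexpression peaks, so a wild-type peak far from a start had fewer peaks to meet. The shares by distance thus also depend on where the overexpression list had peaks, and they are a description.

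**Figure D1:**
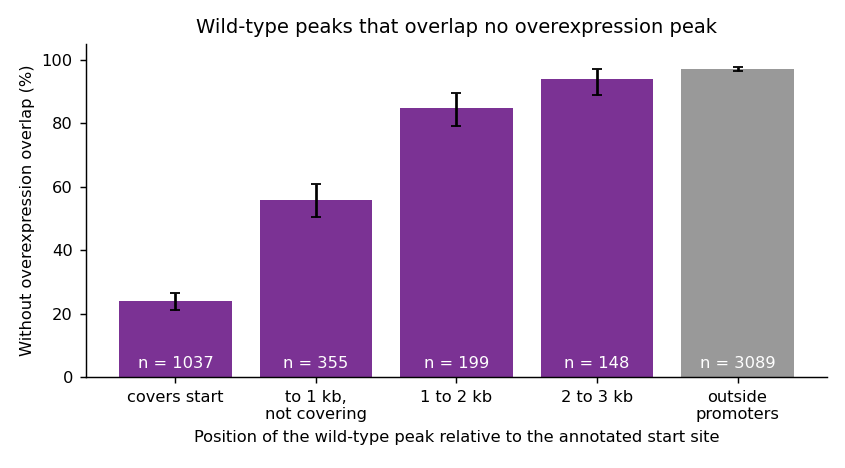
Share of wild-type acetyl-H3 peaks that overlap no overexpression peak (y axis, percent) by position relative to the annotated start site (x axis), with exact 95% binomial intervals that cover counting error only. The share is 23.9% where the peak covers the start and 93.9% at 2 to 3 kb, near the 97.1% of peaks outside promoters. Most overexpression peaks lie at promoters, so the share also depends on where that list has peaks.

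The confidence of the wild-type call moved the share less than position did. Of wild-type promoter peaks with the authors' p-value of at most 1e-05, 90 of 305 lacked overlap (29.5%), and of those above 0.0001, 533 of 1067 did (50%). Among peaks that covered a start the shares were 19.7% of 244 at p of at most 1e-05 and 27.2% of 547 above 0.0001. Among peaks that did not cover one they were 68.9% of 61 and 73.8% of 520. Narrow peaks lacked overlap more often, at 64.7% of 434 peaks of up to 700 bp and 24.7% of 300 peaks over 1500 bp. Width enters the rule itself, since a wider peak has more bases that can meet another.

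Members were narrower than overlapping wild-type promoter peaks, with a median width of 789.5 bp (range 397 to 7240) against 1059 bp. Their median fold enrichment, a ratio over a background that the files do not describe, was 4.57 (2.37 to 8.56) against 4.27 for overlapping peaks. The median p-value was 0.000298 against 0.000132, and 90 members (11.9%) reached 1e-05 against 215 overlapping peaks (21.8%). For wild-type peaks outside promoters these medians were 774 bp, 4.49 and 0.000372. In width and fold the members thus lay nearer to the wild-type peaks outside promoters than to the overlapping promoter peaks.

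The distance from the nearest overexpression peak ran from 6 to 3116688 bp over the 754 members, with a median of 24243 bp (95% interval over members 20948 to 28164). The median was 9695 bp for members whose gene had an overexpression promoter peak elsewhere and 46656 bp for members whose gene had none. A gap of at most 1 kb was found for 74 members of the class with a peak elsewhere (22.8%) and for 18 of the class without (4.2%). The 4 members more than 1 Mb away all belonged to the class without. The split by class uses overexpression peaks of the same gene, which bounds the gap of the class with a peak elsewhere, so these differences follow from the rule. At the edge of the rule, the members nearest to an overexpression peak were HAUS5 at 6 bp, MACROD1 at 33 bp, LRTOMT at 41 bp, AFTPH at 43 bp and PHLPP1 at 47 bp. The wild-type promoter peaks that only just overlapped were KLF12 and KDM5A by 5 bp each, LOC100506100 and MISP3 by 9 bp each and PHPT1 by 12 bp.

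**Figure D2:**
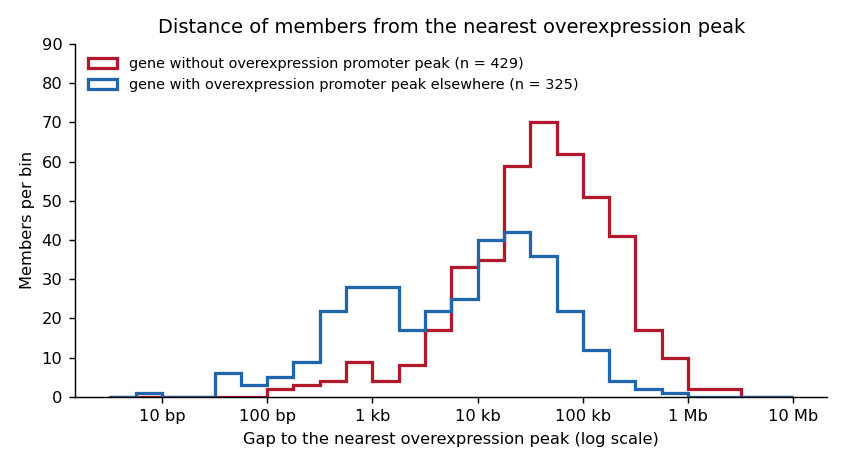
Number of members (y axis) by the gap to the nearest overexpression peak (x axis, log scale). The 429 members whose gene has no overexpression promoter peak have a median gap of 46656 bp, and the 325 members whose gene has one elsewhere have a median of 9695 bp and a second group of values near 1 kb.

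The 325 members whose gene had an overexpression promoter peak elsewhere belonged to 310 genes, and 318 of them (97.8%) belonged to protein-coding genes. In most cases the overexpression peak sat at a start site of the gene and the wild-type member at another annotated start or beside it. The gene's own overexpression promoter peak covered its annotated start in 297 of the 325 pairs (91.4%). For 277 of these members the set of RefSeq promoter windows used here held a start of the gene. An overexpression peak covered such a start for 231 (83.4%), against 14 covered by the member itself (5.05%). The set lacked some genes, so a RefSeq start means one in this set. An overexpression promoter peak of the gene is part of the rule for this class. A member cannot cover a start that an overexpression peak covers. Both shares thus follow at least in part from the rule and are a description. Over all 15812 protein-coding genes with a RefSeq start, an overexpression peak covered one in 40.1% and a wild-type peak in 5.23%. Over all 27195 genes with a RefSeq start the shares were 28.1% and 3.66%.

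The start sites assigned to the overexpression and wild-type peaks of a gene were over 1 kb apart in 234 of 325 pairs (72%) and over 10 kb apart in 175 (53.8%). The peaks were assigned to the same transcript in 54 pairs (16.6%). The median gap within a pair was 10371 bp (6928 to 14900), at most 1 kb in 74 pairs (22.8%) and over 100 kb in 34 (10.5%). The member lay downstream of the overexpression peak along the gene in 235 pairs (72.3%, 67.1 to 77.1). The overexpression peaks of these genes had a median fold of 7.43 and a median width of 1802 bp, beside 7.65 and 1684 bp over all 8300 overexpression promoter peaks. The background of the fold is not described and may differ between the libraries, so an overexpression fold and a wild-type fold set side by side below are not a measure of change.

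**Figure D3:**
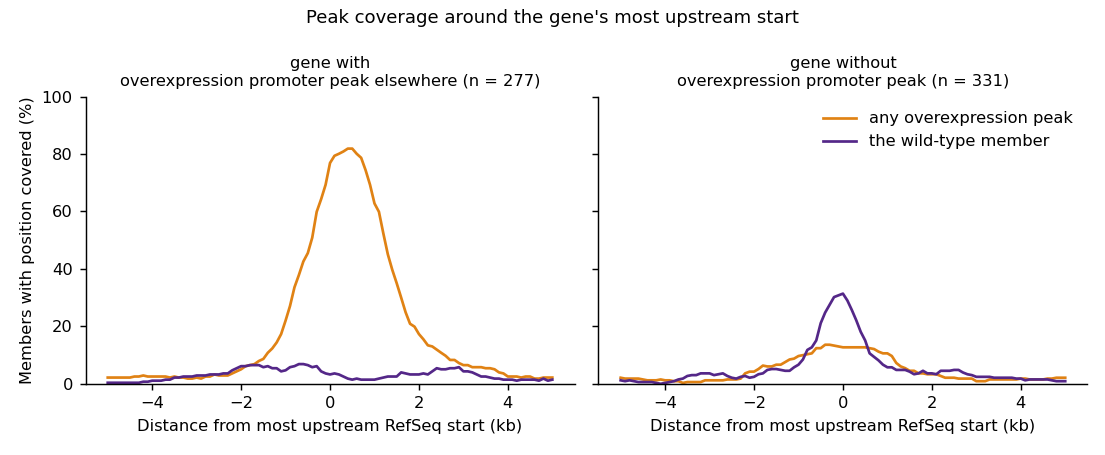
Percent of members (y axis) whose gene has an overexpression peak (orange) or the member itself (purple) over each position around the gene's most upstream RefSeq start (x axis, kb, downstream to the right). In the left panel overexpression peaks cover the start for 76.9% of 277 members and members for 3.25%, and in the right panel the shares at the start are 12.7% and 31.4% of 331 members. No member overlaps an overexpression peak, and the classes are defined by overexpression promoter peaks, so these contrasts follow at least in part from the rule.

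By wild-type fold, the leading members of this class included PCBP2, with an overexpression fold of 9.65 and a wild-type fold of 6.77 on peaks 67 bp apart. PCBP2 also had a further wild-type promoter peak that overlapped an overexpression peak. NXPH4, a secreted neurexophilin, had an overexpression fold of 7.34 and a wild-type fold of 6.85 at a gap of 2868 bp. ANKAR had an overexpression fold of 7.85 and a wild-type fold of 6.85, 4146 bp apart. These 3 genes carried both peaks within 5 kb. In other genes the peaks lay farther apart. ZEB2, a zinc finger transcription factor, had its overexpression peak (fold 14.15) 83670 bp from the wild-type member (fold 6.28). ANXA4, an annexin, had an overexpression fold of 12.05 and a wild-type fold of 6.28, 62485 bp apart. AP2B1, a subunit of the clathrin adaptor, had an overexpression fold of 6.16 and a wild-type fold of 6.28 at a gap of 34529 bp. The remaining genes in this ranking were MACF1, a cytoskeletal crosslinker, WDR26, a subunit of a ubiquitin ligase, CCNI, a cyclin, and CLSPN, a DNA replication checkpoint mediator, with gaps between 8940 and 31567 bp.

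By p-value, PPCDC, an enzyme of coenzyme A synthesis, led this class. Its overexpression promoter peak had a fold of 13.24 and lay 16763 bp from the wild-type member, which had a fold of 4.89 and a p-value of 5.74e-11. A nearer, intronic overexpression peak listed under PPCDC (fold 7.74) lay 2191 bp from the member. A further wild-type promoter peak of PPCDC overlapped an overexpression peak. SMG6, an endonuclease of nonsense-mediated decay, had an overexpression fold of 5.8 and a wild-type fold of 5.58 with a p-value of 3.24e-09. Its peaks lay 193967 bp apart within the gene. A nearer overexpression peak, listed under HIC1 with a fold of 20.44, lay 12885 bp from the SMG6 member. GAB1, a docking protein that binds GRB2, had an overexpression fold of 6.68 and a wild-type fold of 5.58, 39297 bp apart. The authors' p-value of its member was 4.92e-08. MACROD1, an ADP-ribose hydrolase, and AGK, a lipid kinase, followed, with wild-type p-values of 1.19e-07 and 3.03e-07 and gaps of 33 and 5095 bp. The overexpression peak of RUNX2, a Runt-family transcription factor, had the highest fold among the genes of this class, 27.15, and was 18261 bp wide. Its 2 wild-type members had folds of 3.79 and 4.41 and lay 89607 and 86683 bp away, at another start site.

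The 429 members whose gene had no overexpression promoter peak belonged to 414 genes. Of the 1632 genes with a wild-type promoter peak, 467 had no overexpression promoter peak (28.6%), and 53 of these had no member, because their wild-type peak overlapped an overexpression peak listed under another gene or outside promoters. Members of this class covered an annotated start more often than those of the other class, in 184 of 429 (42.9%) against 64 of 325 (19.7%). The share for overlapping peaks was 80.1%. In the other class, the gene's overexpression promoter peak covered its annotated start in 297 of 325 pairs (91.4%). A member cannot lie over such a peak, so the difference between the classes follows at least in part from the rule. By gene type, 369 of the 429 members belonged to protein-coding genes (86%), 39 to long noncoding RNAs (9.09%) and 11 to microRNAs (2.56%).

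Each peak carries 1 gene name in the deposited lists, so an overexpression peak at a shared start can be listed under a neighbour. For 57 of the 331 members of this class with a RefSeq start, an overexpression peak lay within 1 kb of such a start (17.2%), beside 43% of all protein-coding genes and 31% of all genes with a RefSeq start. The class was chosen for lacking an overexpression promoter peak of the gene, so a low share follows from the rule and nothing is read from it. For 26 members the overexpression list held a peak of the gene outside promoters, 11 of them intronic, 9 distal intergenic, 5 exonic and 1 downstream. With both kinds counted together, 80 of the 429 members (18.6%) had an overexpression peak tied to the gene in another way, and 349 (81.4%) had none.

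MEF2C, a transcription factor of B cells that is also active in myeloma, belonged to the genes with such a neighbour. It had 2 members, at chr5:88729468-88730492 with a fold of 2.81 and at chr5:88731788-88736057 with a fold of 4.54. The second of them was 4270 bp wide and had the lowest p-value of all members, 1.02e-11. An overexpression peak listed under MEF2C-AS1 covered another RefSeq start of MEF2C, upstream. Adjacent promoter peaks under that name had a fold of 5.58 and a p-value of 8.77e-11 (chr5:88878251-88886120) and a fold of 9.67 and a p-value of 1.01e-28 (chr5:88886243-88890887). Which peak of that name covered the start was not recorded. FBXW7, the substrate receptor of a ubiquitin ligase that degrades cyclin E and MYC, was the gene with 3 members. They lay between chr4 positions 152324269 and 152355534, with folds of 3.41, 4.42 and 2.63. An overexpression peak over another FBXW7 start, upstream (fold 7.7, chr4:152533138-152538299) was listed under MIR4453. At both genes the wild-type members sat at internal start sites and the overexpression peak at an upstream one.

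POC1B, a centriole protein, had a member of fold 6.85, with the lowest width of all, 397 bp. The overexpression peak at a RefSeq start of the gene was listed under POC1B-GALNT4 with a fold of 7.86, 62089 bp from the member. PSMD14, the deubiquitinase of the proteasome lid, had an overexpression peak of fold 7.34 listed under LOC101929512 and a wild-type member of fold 6.28, 541 bp apart. CDK6, a cyclin-dependent kinase of early cell cycle entry, had an overexpression peak of fold 8.27 over a RefSeq start (chr7:92830257-92837200), listed under LOC101927497. A further intronic one had a fold of 4.39. The wild-type member of CDK6 had a fold of 3.85 and lay at a different place, chr7:92620730-92621605. HDAC3, a histone deacetylase, had a RefSeq start 43 bp from an overexpression peak of fold 6.81 listed under RELL2, and a wild-type member of fold 5.14.

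The member of highest fold was CIITA, the master activator of MHC class II genes, which is silenced when B cells become plasma cells. Its wild-type peak at chr16:10876838-10878069 was 1232 bp wide, covered an annotated start and had a fold of 8.56 and a p-value of 4.17e-09. The nearest overexpression peak lay 66371 bp away at CLEC16A. ELOVL3 had a fold of 6.85 and a p-value of 5.81e-11, with the nearest overexpression peak 3411 bp away at PITX3. CAPS2 had a fold of 6.85 and a gap of 150205 bp, SLFN12 a fold of 6.46 and a gap of 13384 bp, and KHDC4 a fold of 6.38 and a gap of 40660 bp. Members of this class with a fold of 6.28 were, beside PSMD14, VPS4B, an ATPase of membrane scission, INHBE, an inhibin subunit, BPNT1, a nucleotidase, PC, the mitochondrial pyruvate carboxylase, CACNA1G, a calcium channel, TNFRSF12A, a TNF receptor family member, CCDC150 and RNVU1-14, a variant U1 RNA gene. U1 genes have near-identical copies, so the position of the RNVU1-14 peak is uncertain. DACT3-AS1, an antisense RNA, and RDH11, a retinol dehydrogenase, were not among the highest folds (5.15 and 5.71) but had p-values of 1.87e-11 and 2.81e-10.

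The widest member lay at GREB1, an oestrogen-responsive gene, with 7240 bp at chr2:11530426-11537665 and a fold of 2.57. HPCAL1, a calcium sensor with a member of 4751 bp, and NOL10, a nucleolar protein with one of 3995 bp, also lay on chromosome 2 and had overexpression promoter peaks elsewhere. The other wide members were LOC285766 with 4409 bp and MEF2C. The members farthest from any overexpression peak were at SEMA3C, a secreted semaphorin (3116688 bp), TLE1, a transcriptional corepressor (2002272 bp), CASP12 (1177749 bp), CYBB, the catalytic subunit of the phagocyte NADPH oxidase (1027192 bp), and LINC01822 (886630 bp).

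Across 13 gene lists, 73 listed genes had a wild-type promoter peak and 27 of these had a member, with 17 genes in the class without an overexpression promoter peak and 10 in the class with one elsewhere. Over all 1632 genes with a wild-type promoter peak, 724 had a member (44.4%). No test was run on any list. The B cell and antigen presentation list had an overexpression promoter peak for 7 of its genes and a wild-type promoter peak for 3, all of them members. These were CIITA, the B cell kinase BLK (fold 4.96), which had no overexpression promoter peak, and PLCG2, a phospholipase of B cell receptor signalling. PLCG2 had an overexpression fold of 7.34 and a wild-type fold of 4.84 on peaks 40294 bp apart.

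The plasma cell and myeloma list had 20 genes with an overexpression promoter peak and 7 with a wild-type one, and 4 of the 7 had members. POU2AF1, a B cell coactivator of octamer-binding factors, had 2 members, with folds of 4.38 and 5.53, that lay 242435 and 155370 bp from any overexpression peak. SP140, a bromodomain protein of lymphoid cells, had a member of fold 4.57 at a gap of 141139 bp. MEF2C is described above, and ITGA4, an integrin subunit that binds marrow stroma, had an overexpression fold of 12.25 and a wild-type fold of 4.57, 33420 bp apart. The NF-kB list had 17 genes with an overexpression promoter peak and 8 with a wild-type one, of which 5 had members. NFKB2, the precursor of p52, had a member of fold 5.83 over a RefSeq start, 25768 bp from any overexpression peak. TRAF1, a receptor adaptor, had a member of fold 4.57 and no overexpression promoter peak. NFKBIA, the inhibitor IkB alpha, had an overexpression fold of 8.91 and a wild-type fold of 5.71 at a gap of 1478 bp. TRAF5 and BIRC2 had overexpression promoter peaks 42458 and 11628 bp from their members.

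Histone acetylation enzymes and readers had 35 genes with an overexpression promoter peak and 10 with a wild-type one, and 5 of the 10 had members. KAT7, an H3 acetyltransferase, had a member of fold 4.12 over an annotated start, and ING4, a subunit of its complexes, one of fold 4.26. HDAC9 had a member of fold 4.98, 848682 bp from the nearest overexpression peak. BRD9, a bromodomain subunit of a chromatin remodeller, had an overexpression fold of 9.85 and a wild-type fold of 4.89, 7572 bp apart. The unfolded protein response and proteasome list had 37 genes with an overexpression promoter peak and 9 with a wild-type one, and 3 had members, HSP90B1 (fold 5.14), PSMD14 and SEL1L (fold 3.72).

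Other lists held few members. The cell cycle and DNA replication list had 38 genes with an overexpression promoter peak, 10 with a wild-type one and 1 with a member, CDK6. DNA repair had 32, 7 and 1, the member being FANCM, a Fanconi anaemia helicase, with a fold of 5.13. Aminoacyl-tRNA synthetases had 28, 8 and 1, the member being VARS with a fold of 2.98, 1674 bp from its overexpression peak. GRB2, RAS and MAPK signalling had 33, 5 and 2, the members being GAB1 and SPRY2, and apoptosis had 22, 3 and 0. The wild-type promoter peak of AIMP1 overlapped an overexpression peak, and neither GRB2 nor ANP32A had a member. The T and NK cell list had 3, 2 and 1, the member being KLRD1, a natural killer cell receptor (fold 4.37), and the monocyte and macrophage list 0, 1 and 1, the member being ITGAX, a myeloid integrin (fold 5.14). The erythroid and neuronal list had 2, 0 and 0.

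Gene families also differed in how many of their wild-type promoter genes had a member, with 44.4% over all such genes. Cytosolic ribosomal protein genes had 0 of 17, histone genes 1 of 11 and respiratory chain genes 2 of 10. Solute carriers had 11 of 20, microRNA genes and hosts 13 of 25, mitochondrial ribosomal proteins 5 of 12, zinc finger genes 7 of 22 and long intergenic or antisense RNAs 25 of 61. These counts are small and were not tested.

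MicroRNAs are cut from longer transcripts and pair with messenger RNAs through their seed, bases 2 to 8. The 12 microRNA members, 11 of them without an overexpression promoter peak of the microRNA, included 11 with RefSeq mature sequences, 15 in all, with 15 distinct seeds. Those of MIR155, a regulator of B cell activation, are shown with those of MIR4500, which has the let-7 seed, and of MIR130A. Seeds are in capitals.
hsa-miR-155-5p: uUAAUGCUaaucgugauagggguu
hsa-miR-155-3p: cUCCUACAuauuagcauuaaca
hsa-miR-4500: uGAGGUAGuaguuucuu
hsa-miR-130a-5p: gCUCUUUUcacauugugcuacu
The MIR155 member (chr21:25572362-25573894) had a fold of 3.28 and a p-value of 0.000596. The overexpression list held a peak of fold 9.59 and p-value 1.15e-20 at the start of the host gene MIR155HG, 8933 bp away, so the locus had a peak in both libraries under different names. MIR612 lies inside NEAT1, a nuclear long noncoding RNA, in RefSeq. The NEAT1 overexpression peak had a fold of 13.93 and a width of 15302 bp, and the MIR612 member a fold of 4.34 and a p-value of 1.17e-07, at a gap of 8441 bp. The overexpression list also held an exonic peak under the name MIR612, with a fold of 8.69 (chr11:65453635-65455528). MIR3649 had the highest fold of the microRNA members, 5.64. MIR4500 had 4.37 and MIR130A 4.57.

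Start regions under members had somewhat fewer CpG dinucleotides than those under overlapping peaks. The median ratio of observed to expected CpG was 0.765 (0.725 to 0.821) in 129 RefSeq windows whose start a member covered, against 0.868 (0.855 to 0.885) in 580 windows whose start an overlapping wild-type promoter peak covered. The ratio was under 0.6 in 30 of the 129 windows (23.3%), against 51 of the 580 (8.79%). All 22199 protein-coding windows had a median of 0.737 and 37.8% under 0.6. Median GC content was 61.7% under members and 65% under overlapping peaks. The GC box GGGCGG, searched on both strands, was found in 65.9% of member windows, 74.3% of overlapping windows and 56.3% of protein-coding windows. CCAAT was found in 45.7%, 45.5% and 34.7% in that order, TATAAA in 6.2%, 5% and 9.47%, and the E-box CACGTG in 10.1%, 10.5% and 8.34%. A match of letters is not evidence of binding, and windows of 300 bases from one gene can overlap.

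**Figure D4:**
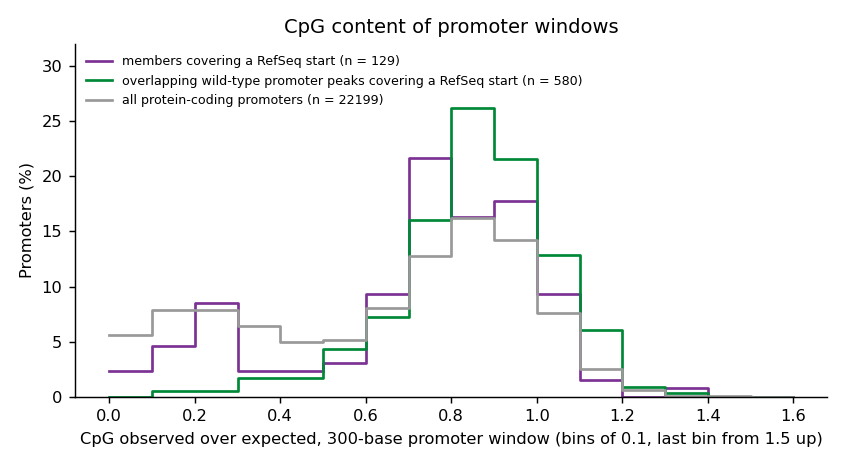
Share of promoter windows (y axis, percent of each set) by the ratio of observed to expected CpG (x axis, bins of 0.1) for windows whose start is covered by a member, by an overlapping wild-type promoter peak, and for all protein-coding windows. Medians are 0.765, 0.868 and 0.737, and 23.3%, 8.79% and 37.8% of windows lie under 0.6.

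Members were spread over all 23 chromosomes of the lists. The share of wild-type promoter peaks that were members was 57.4% of 176 on chromosome 1 (49.7 to 64.8), 53.6% of 97 on chromosome 12 and 51.3% of 117 on chromosome 2. It was lowest on chromosome 19 among those with over 100 such peaks, at 28.7% of 143 (21.4 to 36.8), beside 33.3% of 108 on chromosome 6. On chromosome 13, 13 of 15 members belonged to the class without an overexpression promoter peak, beside 429 of all 754 members (56.9%). On chromosome 21 it was 4 of 4, and on chromosome X 2 of 2. These counts are small and were not tested. The copy number of each chromosome in the 2 libraries was not tested.

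**Figure D5:**
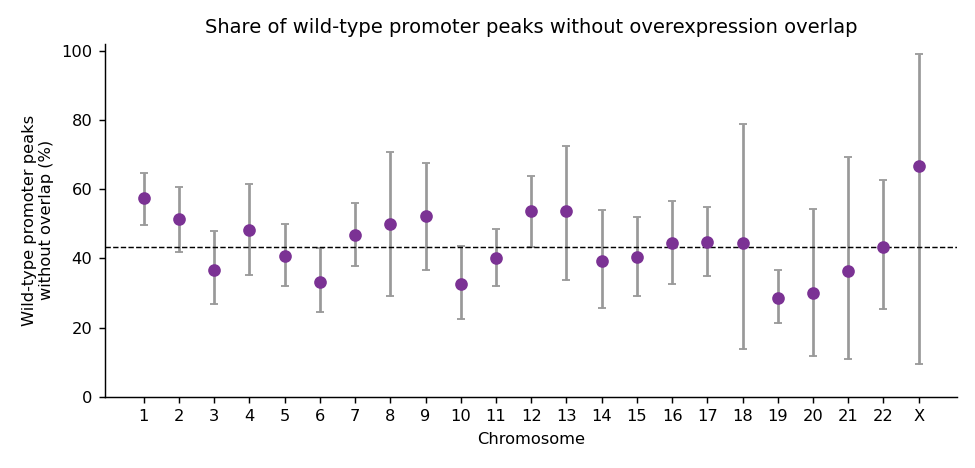
Share of wild-type promoter peaks that overlap no overexpression peak (y axis, percent) on each chromosome (x axis), with exact 95% binomial intervals and the share over all chromosomes, 43.4%, as a dashed line. Chromosome 1 lies above the line at 57.4% and chromosome 19 below it at 28.7%.

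Some members lay together. Within 100 kb of each other were 164 members (21.8%) in 77 clusters, of which 69 were pairs. Some pairs were 2 peaks of 1 gene. The matching share for overlapping wild-type promoter peaks was not computed, so the clusters are not read as a trait of members. More than 1 member was found for 28 of 724 genes, and more than 1 overlapping peak for 33 of 952 genes. The largest held NOP2, CHD4, ING4, PTMS and P3H3 on chromosome 12 (chr12:6560827-6835164), with folds between 3.49 and 4.26 and 7 overexpression peaks in the same span. CHD4 is a remodelling ATPase, and NOP2 a methyltransferase of ribosomal RNA. PLA2G6, MAFF and TMEM184B formed a cluster on chromosome 22 (chr22:38191469-38242287) with folds of 4.57 to 5.71 and 0 overexpression peaks in its span. The 28 genes with more than 1 member included POU2AF1, CTTN, a cortical actin-binding protein (folds 5.63 and 4.57), TNIP3, an inhibitor of NF-kB activation (3.79 and 3.72), and SIK2, a salt-inducible kinase. SIK2 had an overexpression fold of 7.66 and wild-type folds of 3.72 and 5.85, with the wild-type members 303 and 1007 bp from the overexpression peak.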

How the data were processed

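Acetyl-H3 peak lists of 1 AIMP1-overexpression and 1 wild-type library were used, and the input libraries were not analysed here. Bowtie2, FastQC, Trimmomatic and cutadapt are named in the submitters' processing notes without a version. How peaks were called, at which threshold and on which genome build is not given in the sources used here. The fold is the authors' deposited ratio per peak, and the p-value was likewise deposited by the authors for each peak. The highest p-value seen among the wild-type promoter peaks was 0.001. The fold and the p-value describe a peak within its own list. Read depth is unknown. Of 180 microRNA genes in the lists, 158 lay within 1 bp of their place in RefSeq GRCh38.p14 (87.8%), and RefSeq starts and sequences were used on that basis. The set of RefSeq promoter windows was partial and held the gene of 608 of the 754 members (80.6%). CIITA was among the genes it lacked. Gene identifiers matched RefSeq for 99.9% of members, and 1 member carries a date in place of a symbol in the list.

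Overlap meant at least 1 bp, and genes were matched by symbol. Matching by gene identifier changed the class of 0 members. The overlap step was tested on simulated data with 1000 planted peaks: 400 of 400 planted overlaps were found, and 0 of 571 peaks planted clear of others were called overlapping. Exact (Clopper-Pearson) 95% intervals of shares and order-statistic intervals of medians cover counting error over peaks, which are not replicates. Named genes were the highest folds and lowest p-values of each class, the widest, nearest and farthest members, the listed genes with a member, genes with 2 or more members, AIMP1, ANP32A and GRB2. MLLT3 follows from the rule for the sequences shown, and NOP2, CHD4, PTMS, P3H3, TNFRSF12A, PLA2G6, MAFF, TMEM184B and the microRNA genes were named after their values were seen. The members and lists were chosen with earlier results of these data known. Alternatives changed the overlap, the p, fold and promoter limits, the length of the overexpression list and the match to genes. The software was matplotlib 3.10.9, scipy 1.17.1, numpy 2.4.6 and pandas 2.3.3 under Python 3.11.15.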

Additional observations from a re-analysis of the deposited data

How the results depend on the processing

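Under 62 recomputed values, 34 stayed within the main interval or within 1.5 times the main count, and 28 did not. With an overlap of 50% of either peak, members were 50.9% of wild-type promoter peaks, 50.1% of them had no overexpression promoter peak of the gene, and the median gap was 17100 bp. With any overexpression peak within 1 kb counted as overlap, the values were 38.1%, 62.1% and 31819 bp. With wild-type peaks at p of at most 0.0001 there were 221 members (32.9%), 89 with and 132 without a peak of the gene. At or above the median wild-type fold of 4.47 there were 441 (50.4%), 182 with and 259 without. With an overexpression list cut to the 4828 peaks of the wild-type list's length, members were 60.3%, 819 of them without a peak of the gene (78.1%), and the median gap was 50823 bp, so the split rests on the length of that list. With promoters limited to 1 kb there were 446 members (32%), 153 with a peak of the gene elsewhere and 65.7% without. With wild-type peaks that cover the start site, an alternative chosen after seeing the data, there were 248 (23.9%), 64 with and 184 without (74.2%). When an overexpression peak within 1 kb of the RefSeq start also counted as a peak of the gene, 49.3% were without. Promoters by distance to 3 kb gave the same members, since the annotation uses the same limit. The values of that alternative are among the 34 and are no separate check. The median CpG ratio at the RefSeq start nearest to the member was 0.791 over 608 members (0.765 to 0.814). It stayed within this interval under each alternative run on it. The median of 0.765 in the 129 windows whose start a member covered, and its difference from overlapping peaks, were not recomputed. No paired analysis was possible because there was 1 acetyl-H3 library a group, which also left no replicate to leave out. Depth is unknown, so whether a missing peak reflects depth was not tested.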

Other observations

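The member of second-highest fold had no gene symbol in the deposited list. It lay on chromosome 1 (chr1:632899-634037), with a fold of 7.99 and a p-value of 4.31e-11, 331788 bp from the nearest overexpression peak. RefSeq places the pseudogenes MTCO2P12, MTATP8P1 and MTATP6P1, nuclear copies of mitochondrial genes, under it. Reads of such copies and of the mitochondrial genome are hard to tell apart, and the part this had in the peak was not tested.

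Folds of members took few values, with 198 distinct folds over 754 members. The most frequent were 4.57 in 70 members, 5.14 in 67 and 4.47 in 30. Ranks among members of equal fold therefore rest on the p-value.

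Of the 754 members, 45 belonged to a gene with a further wild-type promoter peak that overlapped an overexpression peak, 43 in the class with an overexpression promoter peak elsewhere and 2 in the class without. Another wild-type peak within 5 kb was found for 61 members (8.09%) and for 117 overlapping wild-type promoter peaks (11.9%).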
